A study of Homo sapiens with 4 samples.

Results

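TGF-beta ligands, their latent carriers, receptors and SMADs were examined in MDA-MB-231 cells after knockdown of JARID2. They were represented by 10 genes chosen by symbol: the ligand genes TGFB1 and TGFB2, the latent TGF-beta binding protein genes LTBP1 and LTBP3, the receptor genes TGFBR1, TGFBR2 and TGFBR3, and the signal transducer genes SMAD2, SMAD3 and SMAD4. All 10 were found among the 25133 rows with a gene symbol. The rule uses their symbols alone, but the genes were chosen with earlier results of these data known. MDA-MB-231 is an established human breast cancer cell line of mesenchymal-like basal type. The cells were infected with lentivirus carrying a short hairpin against JARID2 (shJARID2, genotype given as a JARID2 knockdown) or a scrambled hairpin (shSCR, genotype given as WT), and both groups were grown in medium with fetal bovine serum. RNA sequencing was done on 2 libraries per group. The number of hairpins behind shJARID2, the time after infection and the cultures behind each library are not given in the labels used here. P-values therefore measure the spread between these libraries, which may be technical. JARID2 is an accessory subunit of Polycomb repressive complex 2, which methylates histone H3 at lysine 27.

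TGF-beta is made as a dimeric precursor whose propeptide stays bound to the mature ligand and keeps it inactive. Latent TGF-beta binding proteins are linked to that propeptide and anchor the complex in the extracellular matrix, from which integrins, proteases or thrombospondin release the ligand. The released ligand binds the type II receptor, which phosphorylates the type I receptor, and the type I receptor phosphorylates SMAD2 and SMAD3, which enter the nucleus with SMAD4. In breast carcinoma cells the pathway is known for promoting invasion and spread to bone, and in normal epithelium for arresting growth.

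Levels are FPKM (fragments per kilobase of exon at a common library size), which allow comparison between genes per length. Changes are given as log2 fold changes of shJARID2 over shSCR, computed after adding 1 FPKM, which makes changes of low genes look smaller than they are, and tests are limma's with Benjamini-Hochberg adjustment over all 12455 genes tested. JARID2 itself had 3.88 and 3.91 FPKM in the shJARID2 libraries, against 10.8 and 10.8 in the shSCR libraries, and fell by 1.27 (adjusted p = 0.0014, limma). Across all genes, the change varied with transcript GC content. The median log2 fold change declined over the deciles of GC content, being 0.46 where it was lowest (median 38.0%) and -0.80 where it was highest (median 63.6%), so GC-corrected values are given beside the measured ones. Depths were 13000000 and 12800000 reads in shJARID2 and 15500000 and 16200000 in shSCR. All 8 markers of a mesenchymal-like basal line averaged at least 1 FPKM over the 4 libraries and together made 1484 and 1433 FPKM in shJARID2 and 1543 and 1600 in shSCR (3 rose and 4 fell), although VIM had only 2.10 and 2.77 in shJARID2 and 3.54 and 4.20 in shSCR. Of 9 luminal markers found, 4 reached that level and all 4 fell. Their list made 21.9 and 25.9 FPKM in shJARID2 and 46.1 and 48.7 in shSCR, with ESR1, PGR and CDH1 at most at 0.203. None of 17 fibroblast, leukocyte and endothelial markers averaged 1 FPKM, and no marker of these lists was at 0 in all 4 libraries. The part of depth and luminal markers in the results below was not tested. In RNA from whole cultures, fewer cells of a type and less RNA per cell cannot be told apart.

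The 10 genes did not move as a block. TGFB1, the most studied TGF-beta ligand gene, was at 0.337 times its shSCR level in shJARID2, whereas SMAD4 rose to 1.59 times its shSCR level. In all, 4 genes passed as higher (TGFBR2, TGFBR3, SMAD2 and SMAD4), where 28.0% of all tested genes did, and 2 as lower (TGFB1 and LTBP3), where 31.6% did (59.7% in either direction). The other 4 did not pass. After GC correction 2 passed as higher (SMAD3 and SMAD4), with 22.8% of all genes, and 3 as lower (TGFB1, TGFB2 and TGFBR1), with 21.5% (44.2% in either direction). TGFB1 and SMAD4 were thus the 2 genes that passed in the same direction both ways. The median log2 fold change of the 10 was 0.074 (GC-corrected 0.098), beside -0.018 (GC-corrected 0.00033) over all genes tested. The FPKM of the groups did not overlap for 9 of the 10, which was so for 82.9% of all tested genes. Of these 9, 5 were higher in shJARID2 (39.8% of all genes) and 4 lower (43.1%). All 10 passed the filter of 1 FPKM on average, with 112 to 4338 reads per library.

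**Figure D1:**
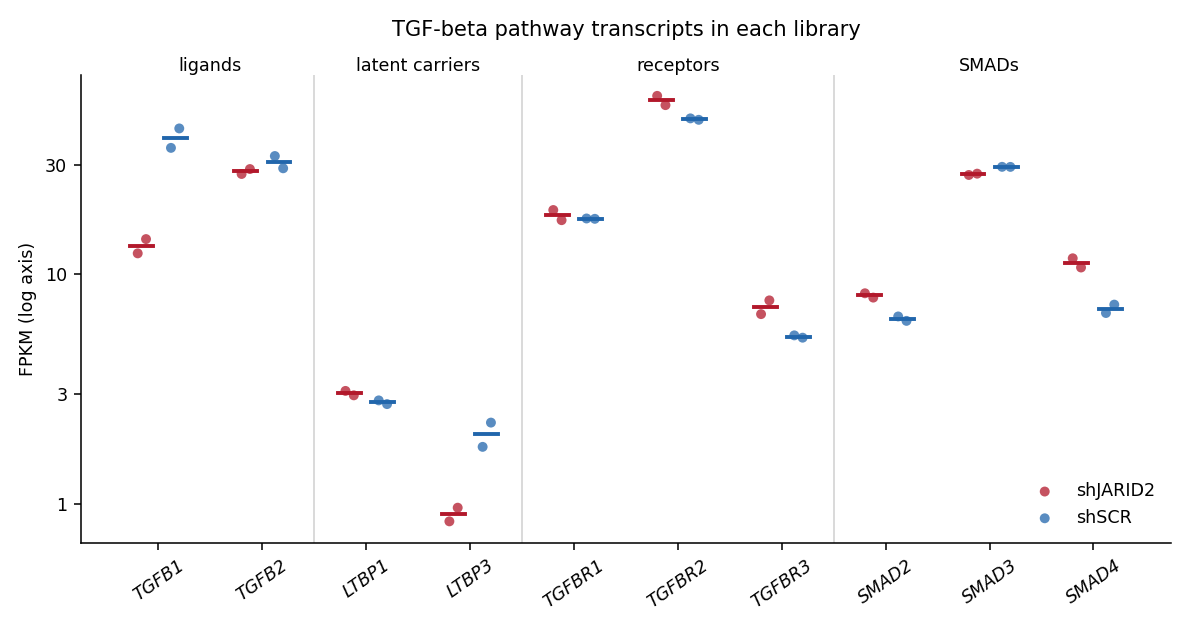
FPKM (log axis) of the 10 genes in each library, shJARID2 left of shSCR for each gene; points are libraries and bars are means of 2. TGFB1 stands at 12.4 and 14.3 FPKM in shJARID2 against 35.6 and 43.3 in shSCR, and TGFBR1 is the gene whose groups overlap.

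The levels spanned a wide range in both groups. TGFBR2 was the highest of the 10, above 95.7% of all tested genes in mean level, and LTBP3 the lowest, above 7.89%. In shJARID2 the order of mean FPKM was TGFBR2, TGFB2, SMAD3, TGFBR1, TGFB1, SMAD4, SMAD2, TGFBR3, LTBP1 and LTBP3. In shSCR the order was TGFBR2, TGFB1, TGFB2, SMAD3, TGFBR1, SMAD4, SMAD2, TGFBR3, LTBP1 and LTBP3. TGFB2 and SMAD3 overlapped in both groups, so their order is not resolved, while the library values of all other neighbours in these orders were separate. These orders are per length and depend on annotated exon bases, 36366 for SMAD2 and 13123 for SMAD4. In reads SMAD2 exceeded SMAD4, with 3898 and 3690 against 1998 and 1801 in shJARID2. In shSCR the reads were 3697 and 3694 against 1381 and 1569. TGFB1 came directly after TGFBR2 in shSCR, but after TGFB2, SMAD3 and TGFBR1 in shJARID2.

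TGFB1 encodes the TGF-beta ligand best known in carcinoma and immune regulation. The gene (ID 7040) lies at chr19:41301587-41353911 on the minus strand of GRCh38. TGFB1 had 12.4 and 14.3 FPKM in the shJARID2 libraries, against 35.6 and 43.3 in the shSCR libraries. Both shJARID2 libraries lay far below both shSCR libraries, and the groups did not overlap. The reads behind these values numbered 518 and 591 in shJARID2 and 1786 and 2267 in shSCR. Mean levels were 13.3 ± 1.35 FPKM in shJARID2 and 39.4 ± 5.42 in shSCR (SD, n = 2 libraries each), a ratio of 0.337. TGFB1 fell by 1.50 on the log2 scale (SE 0.12, adjusted p = 0.0017, limma), and 1.28% of all tested genes had a lower fold change. The transcripts of TGFB1 are rich in GC (58.0%), and the decile of genes of like GC content had a median of -0.57. After GC correction the change was -0.995 (adjusted p = 0.00304, limma), and it passed in each of the 15 alternative settings. Exons of HNRNPUL1, on the opposite strand, cover 6.64% of the exon bases of TGFB1, and the use of strand in counting is not known.

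TGFB2 encodes a second TGF-beta ligand, which needs TGFBR3 for high-affinity binding to the type II receptor. The gene (ID 7042) lies at chr1:218346235-218444619 on the plus strand. TGFB2 had 27.4 and 28.8 FPKM in the shJARID2 libraries, against 32.8 and 29.0 in the shSCR libraries. The groups did not overlap, but the gap between them was smaller than the difference between the shSCR libraries. TGFB2 did not pass the test as measured (log2 fold change -0.13, SE 0.074, adjusted p = 0.194, limma). Its transcripts are poor in GC (39.0%), in a decile of genes whose median was 0.46. GC-corrected levels, on the log2 scale, were 4.61 and 4.72 in shJARID2 and 5.25 and 5.12 in shSCR, and the GC-corrected change of -0.52 passed (adjusted p = 0.00574, limma). Exons of TGFB2-OT1, on the same strand, cover 26.6% of the exon bases of TGFB2, so reads of these transcripts may have been exchanged.

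Of the genes examined, only TGFB1 and TGFB2 had 1 RefSeq window with no annotated untranslated or coding bases directly upstream of its start. The sequences directly upstream of the RefSeq start of these ligand genes are therefore shown. They are the 200 bases before the RefSeq start, on GRCh38.p14 and 5′ to 3′ on the strand of the gene, at chr19:41353923-41354122 on the minus strand for TGFB1 and chr1:218345136-218345335 on the plus strand for TGFB2. Capitals mark GC boxes, the letters GGGCGG or CCGCCC.
TGFB1: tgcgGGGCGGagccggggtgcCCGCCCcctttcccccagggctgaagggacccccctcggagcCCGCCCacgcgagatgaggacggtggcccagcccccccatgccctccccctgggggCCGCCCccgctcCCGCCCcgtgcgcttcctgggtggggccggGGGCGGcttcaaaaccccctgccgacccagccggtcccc
TGFB2: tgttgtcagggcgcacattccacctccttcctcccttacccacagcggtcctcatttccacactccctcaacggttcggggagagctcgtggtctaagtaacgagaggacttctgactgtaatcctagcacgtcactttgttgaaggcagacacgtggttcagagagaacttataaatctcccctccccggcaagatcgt
The TGFB1 window held 6 GC boxes and 18 CpG dinucleotides and was 79.5% GC. The TGFB2 window held 0 GC boxes and 10 CpG dinucleotides and was 53.0% GC. It ends upstream of the GENCODE start of TGFB2 (218346235). The end of the longer RefSeq window around it was found in 0 GENCODE transcripts of TGFB2, while for TGFB1 it was found in 1. The windows are therefore not matched, and which starts these cells use was not tested. GC boxes occurred in 40.1% of 35116 RefSeq windows of this length. The AP-1 motif TGANTCA, searched on both strands, was in neither window and in 5.38% of all. The SMAD-binding CAGA box, searched as CAGACA or TGTCTG, was found once in the TGFB2 window, not in the TGFB1 window, and in 10.8% of all. These matches describe letters, and no binding was measured. Their part in the changes of the transcripts was not tested.

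Within each library, the balance of the ligand transcripts differed between the groups. The ratio of TGFB2 to TGFB1 in FPKM was 2.22 and 2.02 in the shJARID2 libraries and 0.922 and 0.671 in the shSCR libraries. TGFB2 was the more abundant per length in both shJARID2 libraries, and TGFB1 in both shSCR libraries. The order in shSCR depends on length, since GENCODE release 29 gives TGFB1 3238 exon bases and TGFB2 5151. In reads TGFB2 exceeded TGFB1 in every library, with 1827 and 1898 against 518 and 591 in shJARID2. In shSCR the reads were 2618 and 2418 against 1786 and 2267. The exon bases that TGFB2 shares with TGFB2-OT1 (26.6%) also limit this comparison. TGFB1 made up 31.1% and 33.1% of the summed FPKM of TGFB1 and TGFB2 in shJARID2 and 52.0% and 59.9% in shSCR. The sum itself was 39.7 and 43.0 FPKM in shJARID2 and 68.4 and 72.3 in shSCR. A ratio within a library does not depend on how libraries were scaled, but TGFB1 and TGFB2 differ in GC content, whose part in the ratio was not tested. SMAD3 (56.1% GC) is closest to TGFB1 in GC content among the 10, and the pair, chosen after the values were seen, is given as a description. The ratio of TGFB1 to SMAD3 was 0.456 and 0.519 in shJARID2 and 1.21 and 1.47 in shSCR.

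**Figure D2:**
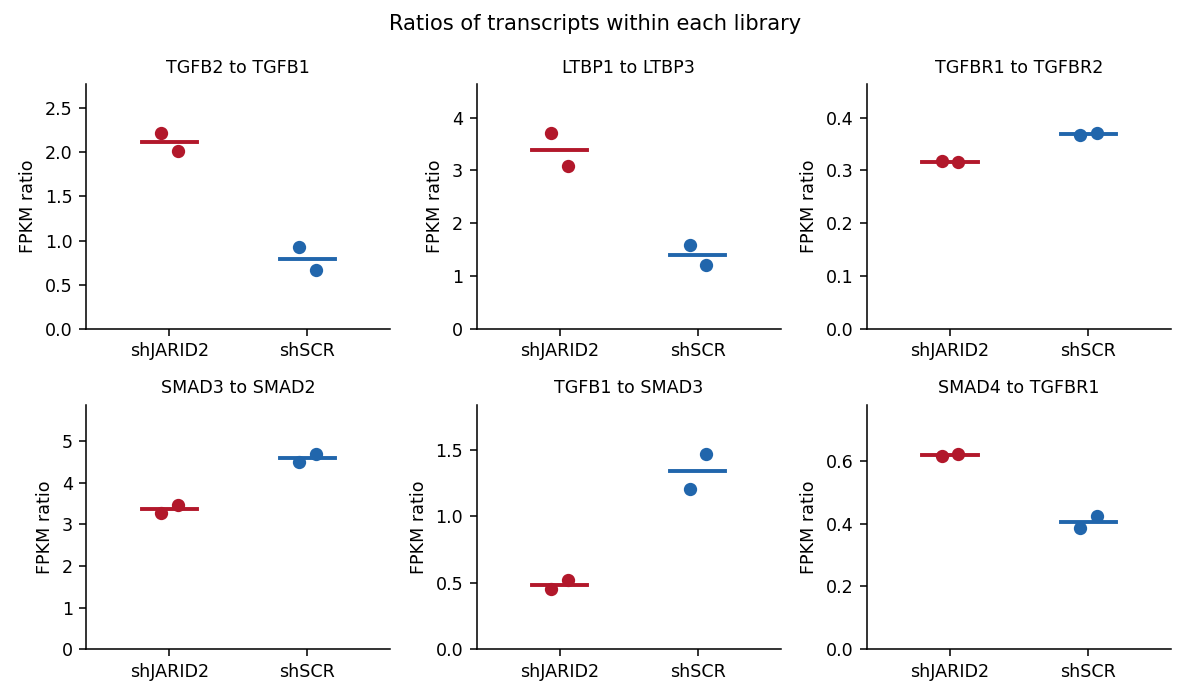
Ratio of FPKM of named pairs of genes within each library, shJARID2 left of shSCR; points are libraries and bars are means of 2, each axis starts at 0, and TGFB2 to TGFB1 is 2.22 and 2.02 in shJARID2 against 0.922 and 0.671 in shSCR. The groups do not overlap in the 6 pairs drawn, of which TGFB1 to SMAD3 and SMAD4 to TGFBR1 were chosen after the values were seen, and TGFBR3 to TGFBR2, not drawn, overlapped (0.112 and 0.141 in shJARID2, 0.113 and 0.112 in shSCR).

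LTBP1 and LTBP3 encode latent TGF-beta binding proteins, which hold the inactive ligand in the matrix. LTBP1 (ID 4052, chr2:32946972-33399509, plus strand) had 3.11 and 2.97 FPKM in the shJARID2 libraries, against 2.83 and 2.72 in the shSCR libraries. The groups were close without overlapping, and the difference did not pass (log2 fold change 0.10, SE 0.085, adjusted p = 0.367, limma, GC-corrected 0.046). LTBP3 (ID 4054, chr11:65538805-65558930, minus strand) had 0.840 and 0.963 FPKM in shJARID2, against 1.77 and 2.26 in shSCR. These are the lowest levels among the 10 genes, and the groups did not overlap. LTBP3 passed the filter through its shSCR libraries, as both shJARID2 libraries were under 1 FPKM. The reads of LTBP3 numbered 112 and 127 in shJARID2 and 283 and 377 in shSCR. LTBP3 averaged 0.902 ± 0.0872 FPKM in shJARID2 and 2.02 ± 0.345 in shSCR (SD, n = 2 libraries each), a ratio of 0.447. It fell by 0.66 on the log2(FPKM + 1) scale (SE 0.14, adjusted p = 0.0164, limma), and the value was -1.07 with a pseudocount of 0.1. The call of LTBP3 was lost without shJARID2 replicate 1 (-0.62, adjusted p = 0.0565, limma) and without shSCR replicate 2 (-0.55, adjusted p = 0.0848, limma). LTBP3 also has the highest GC content of the 10 (64.8%), in a decile of genes with a median of -0.80 (log2), and its GC-corrected value was 0.15 (adjusted p = 0.355, limma), in the other direction. The ratio of LTBP1 to LTBP3 was 3.70 and 3.09 in shJARID2 and 1.59 and 1.20 in shSCR, from genes far apart in GC content (47.9% for LTBP1).

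The receptor transcripts had ratios of shJARID2 to shSCR of 1.04 (TGFBR1), 1.21 (TGFBR2) and 1.34 (TGFBR3). TGFBR1 encodes the type I receptor kinase that phosphorylates SMAD2 and SMAD3 (ID 7046, chr9:99104038-99154192, plus strand). TGFBR1 had 19.1 and 17.2 FPKM in the shJARID2 libraries, against 17.5 and 17.5 in the shSCR libraries. One shJARID2 library lay above and the other below both shSCR libraries, so the groups overlapped. As measured, the change amounted to 0.049 (SE 0.065, adjusted p = 0.546, limma). After GC correction it was -0.25 (adjusted p = 0.0227, limma), from log2 levels of 4.16 and 4.06 in shJARID2 and 4.34 and 4.38 in shSCR. Without shJARID2 replicate 1 the measured value was -0.021.

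TGFBR2 encodes the type II receptor, which binds the ligand first (ID 7048, chr3:30606502-30694142, plus strand). TGFBR2 had 60.0 and 54.6 FPKM in the shJARID2 libraries, against 47.8 and 47.2 in the shSCR libraries. Both shJARID2 libraries lay above both shSCR libraries. TGFBR2 averaged 57.3 ± 3.76 FPKM in shJARID2 and 47.5 ± 0.483 in shSCR (SD, n = 2 libraries each) and rose by 0.26 (SE 0.059, adjusted p = 0.0189, limma). The call was lost without shSCR replicate 1 (adjusted p = 0.0774, limma), without shSCR replicate 2 (adjusted p = 0.0944, limma) and after GC correction (0.16, adjusted p = 0.0719, limma). The ratio of TGFBR1 to TGFBR2 was 0.318 and 0.315 in shJARID2 and 0.366 and 0.370 in shSCR, so TGFBR2 exceeded TGFBR1 per length in every library.

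TGFBR3 encodes betaglycan, a co-receptor without kinase activity that presents TGF-beta ligands to TGFBR2 (ID 7049, chr1:91680343-91906335, minus strand). TGFBR3 had 6.72 and 7.71 FPKM in the shJARID2 libraries, against 5.43 and 5.30 in the shSCR libraries, without overlap. It averaged 7.21 ± 0.701 FPKM in shJARID2 and 5.36 ± 0.0880 in shSCR (SD, n = 2 libraries each) and rose by 0.37 (SE 0.085, adjusted p = 0.0216, limma). Leaving out a library ended this call for shJARID2 replicate 2 (0.28, adjusted p = 0.0592, limma), shSCR replicate 1 (0.38, adjusted p = 0.0873, limma) and shSCR replicate 2 (0.35, adjusted p = 0.107, limma). The GC-corrected value of 0.20 did not pass either (adjusted p = 0.117, limma). The ratio of TGFBR3 to TGFBR2 was 0.112 and 0.141 in shJARID2 and 0.113 and 0.112 in shSCR, and the groups overlapped.

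SMAD2 and SMAD3 encode the receptor-regulated SMADs of the TGF-beta branch. SMAD2 (ID 4087, chr18:47808957-47931146, minus strand) had 8.28 and 7.92 FPKM in the shJARID2 libraries, against 6.56 and 6.28 in the shSCR libraries. Both shJARID2 libraries were above both shSCR libraries, and SMAD2 rose by 0.30 (SE 0.063, adjusted p = 0.0170, limma). The call of SMAD2 was lost without shJARID2 replicate 1 (0.27, adjusted p = 0.0645, limma), shSCR replicate 1 (0.32, adjusted p = 0.0684, limma) or shSCR replicate 2 (0.27, adjusted p = 0.104, limma). After GC correction the value was -0.0029 (adjusted p = 0.970, limma), with SMAD2 transcripts at 42.1% GC in a decile of genes whose median was 0.27.

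SMAD3 (ID 4088, chr15:67063763-67195195, plus strand) had 27.1 and 27.5 FPKM in the shJARID2 libraries, against 29.4 and 29.4 in the shSCR libraries. The groups were separate but close, and the log2 fold change of -0.10 did not pass (SE 0.041, adjusted p = 0.0867, limma). SMAD3 transcripts have 56.1% GC, in a decile of genes whose median was -0.40. The GC-corrected value was 0.29 and passed (adjusted p = 0.00732, limma), with log2 levels of 5.04 and 4.99 in shJARID2 and 4.75 and 4.71 in shSCR. The direction for SMAD3 therefore differed between the measured and the GC-corrected values.

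Per length, SMAD3 exceeded SMAD2 in every library, with a ratio of 3.28 and 3.47 in shJARID2 and 4.49 and 4.69 in shSCR. The order depends on length, since GENCODE release 29 gives SMAD2 36366 exon bases and SMAD3 9113. In reads the ratio of SMAD3 to SMAD2 was 0.821 and 0.869 in shJARID2 and 1.12 and 1.17 in shSCR. Both ways the ratio was lower in both shJARID2 libraries than in both shSCR libraries.

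SMAD4 encodes the shared partner of the receptor-regulated SMADs of the TGF-beta and BMP branches, a tumour suppressor gene that is often lost in pancreatic cancer. The gene (ID 4089) lies at chr18:51028394-51085045 on the plus strand. SMAD4 had 11.8 and 10.7 FPKM in the shJARID2 libraries, against 6.79 and 7.39 in the shSCR libraries. Both shJARID2 libraries lay clearly above both shSCR libraries. Mean levels were 11.2 ± 0.734 FPKM in shJARID2 and 7.09 ± 0.421 in shSCR (SD, n = 2 libraries each), and the gene rose by 0.60 (SE 0.077, adjusted p = 0.00413, limma). The GC-corrected value for SMAD4 was 0.28 (adjusted p = 0.0397, limma), with transcripts of 41.1% GC and a median of 0.35 in its decile of genes. It passed in 14 of 15 alternative settings, the exception being GC correction together with a term for the replicate number (adjusted p = 0.0666, limma). Exons of AC091551.1, on the same strand, cover 7.37% of its exon bases.

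SMAD4 was also set against members of like GC content within each library, pairs that were chosen after the values were seen. The ratio of SMAD4 to TGFBR1 was 0.616 and 0.622 in shJARID2 and 0.387 and 0.423 in shSCR. The ratio of SMAD4 to SMAD2 was 1.42 and 1.35 in shJARID2 and 1.04 and 1.18 in shSCR. Both ratios were higher in both shJARID2 libraries, the ratio to TGFBR1 by more. The ratio of TGFB2 to SMAD4 was 2.33 and 2.69 in shJARID2 and 4.83 and 3.93 in shSCR.

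**Figure D3:**
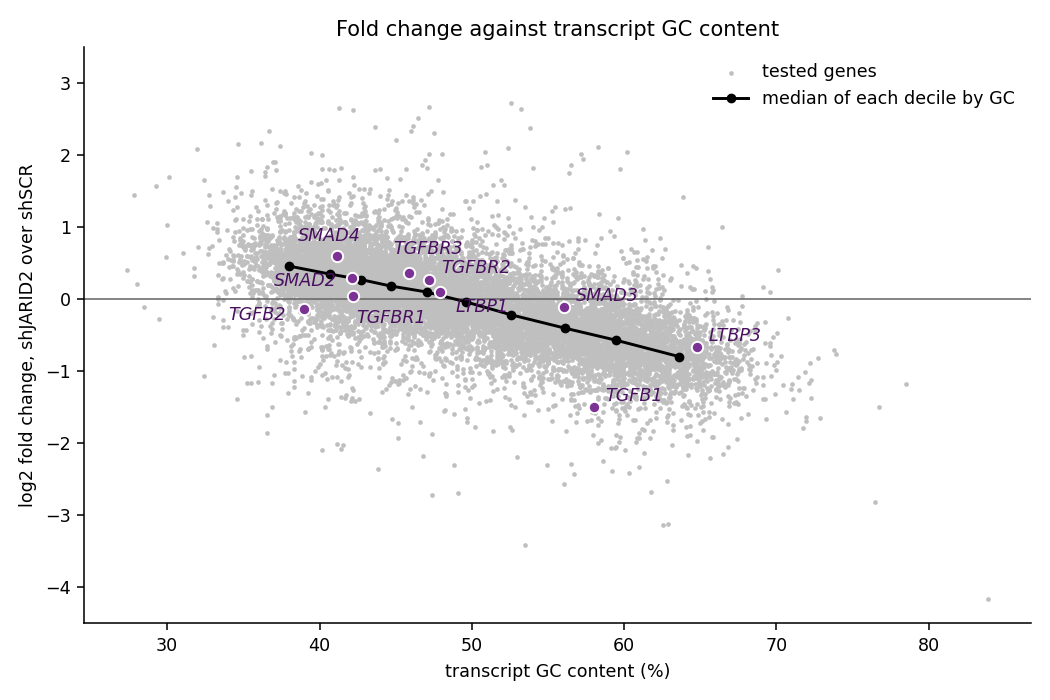
Log2 fold change of shJARID2 over shSCR against the GC content (%) of transcripts for the tested genes, with the 10 genes named and the median of each decile by GC content as a line. TGFB1 (-1.50) lies below the median of its decile (-0.57), while LTBP3 (-0.66) and SMAD3 (-0.10) lie above theirs (-0.80 and -0.40).

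**Figure D4:**
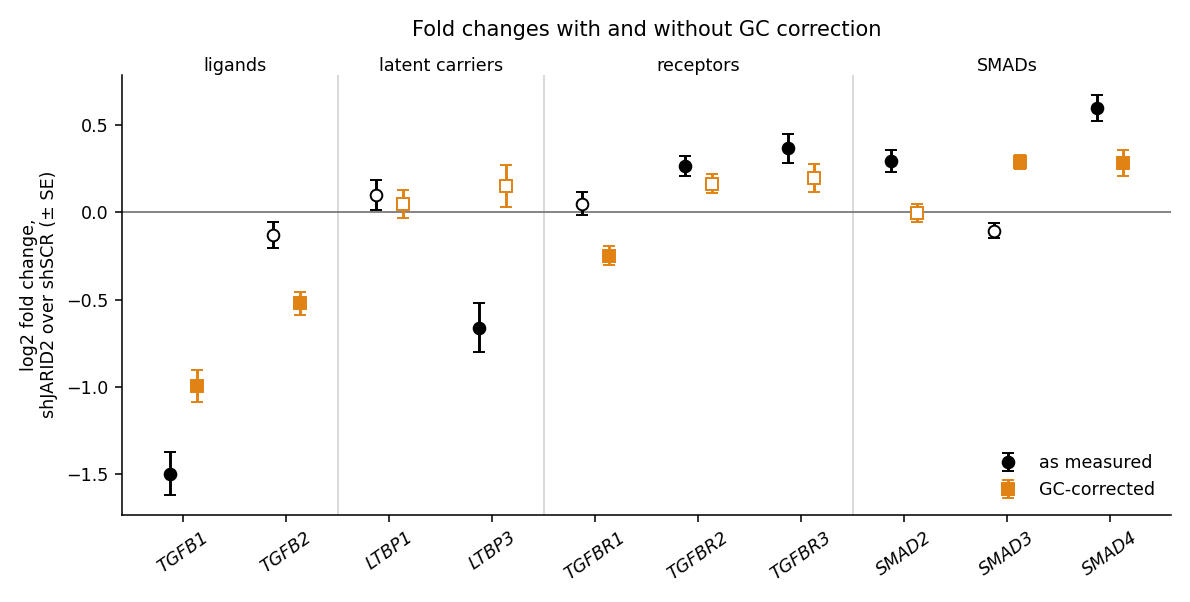
Log2 fold change of shJARID2 over shSCR with its standard error for each gene, as measured (circles) and GC-corrected (squares); filled symbols passed an adjusted p of 0.05 and open symbols did not. TGFB1 (-1.50 and -0.995) and SMAD4 (0.60 and 0.28) are filled both ways, and LTBP3, TGFBR1, SMAD2 and SMAD3 change sign with the correction.

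Genes whose pattern over the 4 libraries was most like that of the members with the largest changes were sought among 10279 protein-coding genes, by Euclidean distance of log2 values centred on the gene mean. For TGFB1 they were FBXL6 (distance 0.0393) and SLC4A2 (0.0640). For LTBP3 they were CSNK1E (0.0361) and CSK (0.0382), and for SMAD4 they were PSMC6 (0.0132) and KBTBD3 (0.0214). With 4 libraries, likeness here is little more than a like change between the groups.

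Other genes of the pathway were counted in 6 lists. Counting each gene once, 108 of 111 list genes were found and 74 reached the filter, of which 25 (33.8%) rose and 30 (40.5%) fell, beside 28.0% and 31.6% of all tested genes. After GC correction 19 (25.7%) were higher, 29 (39.2%) lower and 26 did not pass, beside 22.8% and 21.5% of all genes. The lists below are given as counts and medians, to be read against these shares over all genes; their differences from them were not tested. The median log2 fold change of the 74 was -0.12 both as measured and GC-corrected. A gene under the filter need not be silent, since COX5B, a core subunit gene of cytochrome c oxidase, was listed at 0.107 and 0 FPKM in shJARID2 and 0.0448 and 0.0429 in shSCR.

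Among other ligands of the TGF-beta and activin family, 3 of 10 genes could be tested and 2 fell, beside 31.6% of all genes. After GC correction 1 was lower, beside 21.5% of all genes. INHBB encodes the beta B subunit of activins and inhibins. INHBB had 0.0964 and 0.195 FPKM in shJARID2, against 5.50 and 4.84 in shSCR, from 4 and 8 reads in shJARID2 and 273 and 251 in shSCR. INHBB was thus barely detected in both shJARID2 libraries and passed the filter through shSCR. Its ratio was 0.0282, and it fell by 2.43 (adjusted p = 0.0014, limma, GC-corrected -2.003). GDF11, a ligand gene related to myostatin, had 2.85 and 2.68 FPKM in shJARID2 and 3.73 and 4.40 in shSCR. Its fall of 0.43 (adjusted p = 0.0238, limma) did not pass after GC correction (-0.14) or without shJARID2 replicate 1 (adjusted p = 0.0584, limma), shJARID2 replicate 2 (adjusted p = 0.0760, limma) or shSCR replicate 2 (adjusted p = 0.127, limma). It was also lost with quantile normalization (-0.32, adjusted p = 0.0582, limma) and with no filter on low values (adjusted p = 0.0714, limma). TGFB3, the remaining TGF-beta ligand gene, had 0.943 and 1.57 FPKM in shJARID2, against 1.89 and 1.55 in shSCR, with overlap, and did not pass (-0.28, adjusted p = 0.255, limma).

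Of 11 tested genes of the latent complex and its activation, 3 (27.3%) rose and 8 (72.7%) fell, beside 28.0% and 31.6% of all genes, and the median was -0.38. After GC correction 3 were higher, 6 lower and 2 did not pass, beside 22.8% higher and 21.5% lower over all genes, with a median of -0.25. Of the 11, 8 passed in the same direction both ways. LTBP2 passed as lower as measured (-0.38, adjusted p = 0.0159, limma) but as higher after GC correction (0.34, adjusted p = 0.0332, limma). LTBP4, another latent TGF-beta binding protein gene, had 12.9 and 14.6 FPKM in shJARID2, against 31.8 and 34.2 in shSCR, and fell by 1.21 (adjusted p = 0.0014, limma, GC-corrected -0.42). Per length LTBP4 was the highest of LTBP1, LTBP3 and LTBP4 in every library. NRROS, which tethers latent TGF-beta on the cell surface, averaged 3.12 ± 0.101 FPKM in shJARID2 and 7.49 ± 0.214 in shSCR (n = 2 libraries each, log2 fold change -1.04, GC-corrected -0.47). FURIN, the protease gene whose product cleaves the TGF-beta precursor, averaged 4.75 ± 0.270 FPKM in shJARID2 and 10.1 ± 0.493 in shSCR (-0.95, GC-corrected -0.25). MMP14, a membrane-bound protease gene, fell by 1.35 (GC-corrected -0.79). The falls of LTBP4, NRROS, FURIN and MMP14 passed with each library left out. Their measured changes were the largest of this list, and the 3 genes that rose are not named.

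Among other type I, type II and accessory receptors, 4 of 8 tested genes (50%) rose and 1 (12.5%) fell, beside 28.0% and 31.6% of all genes. After GC correction 3 (37.5%) were higher and 1 (12.5%) lower, beside 22.8% and 21.5% of all genes. The median was 0.34 (GC-corrected 0.21). BMPR2, the type II receptor gene for BMPs, averaged 32.2 ± 1.17 FPKM in shJARID2 and 19.2 ± 0.274 in shSCR (0.72, GC-corrected 0.30). ACVR1, a type I receptor gene for BMPs and activins, averaged 28.8 ± 0.264 FPKM in shJARID2 and 19.0 ± 1.29 in shSCR (0.57, GC-corrected 0.73). ACVR1B, the activin type I receptor gene, fell, with 1.97 ± 0.267 FPKM in shJARID2 and 3.68 ± 0.389 in shSCR (-0.66, GC-corrected -0.40), a call that was lost without shSCR replicate 2 (adjusted p = 0.0690, limma). BMPR1B rose by 0.55, but not after GC correction (0.35, adjusted p = 0.0971, limma), without either shJARID2 library (adjusted p = 0.0861 without replicate 1 and 0.0687 without replicate 2, limma) or without shSCR replicate 1 (adjusted p = 0.101, limma).

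Other SMADs and SMAD regulators split as measured, with 9 of 24 (37.5%) higher and 8 (33.3%) lower, beside 28.0% and 31.6% of all genes. After GC correction 6 (25%) were higher and 11 (45.8%) lower, beside 22.8% and 21.5% of all genes. SMAD7 encodes the inhibitory SMAD that TGF-beta induces as feedback. SMAD7 had 6.53 and 7.30 FPKM in shJARID2, against 5.28 and 4.90 in shSCR, and rose by 0.38 (adjusted p = 0.0188, limma, GC-corrected 0.81). The measured call of SMAD7 was lost without shJARID2 replicate 2 (adjusted p = 0.0616, limma), shSCR replicate 1 (adjusted p = 0.0624, limma) or shSCR replicate 2 (adjusted p = 0.105, limma). SKIL, a SMAD corepressor gene, did not pass (0.18, adjusted p = 0.0800, limma) and passed as lower after GC correction (-0.23). The related corepressor gene SKI fell by 0.70 as measured but was at 0.011, without passing, once corrected for GC content. STRAP, whose product binds TGF-beta receptors together with SMAD7, had 6.43 and 9.61 FPKM in shJARID2, against 17.1 and 18.5 in shSCR (-1.08, GC-corrected -1.41), and its call was lost without shSCR replicate 2 (adjusted p = 0.0534, limma). TGIF2, a SMAD corepressor gene, fell by 1.07 (GC-corrected -0.92), and USP15, a deubiquitinase gene acting on receptors and SMADs, rose by 0.74 (GC-corrected 0.34).

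Genes known to be induced by TGF-beta split as well, with 27 found and 19 of them above the filter and tested. Of the 19, 6 (31.6%) were higher and 8 (42.1%) lower, beside 28.0% and 31.6% of all genes. After GC correction 7 (36.8%) were higher and 6 (31.6%) lower, beside 22.8% and 21.5% of all genes. CTGF, a matricellular protein gene of both TGF-beta and YAP signalling, had 153 and 157 FPKM in shJARID2, against 125 and 138 in shSCR. It rose by 0.23 (adjusted p = 0.0288, limma, GC-corrected 0.36), a call lost without shJARID2 replicate 1 (adjusted p = 0.0674, limma), shJARID2 replicate 2 (adjusted p = 0.0901, limma) or shSCR replicate 1 (adjusted p = 0.115, limma), with quantile normalization (0.17, adjusted p = 0.0872, limma), without the variance trend (adjusted p = 0.0601, limma) and with no filter on low values (adjusted p = 0.104, limma). CDKN1A, a cell cycle inhibitor gene, had 0.582 and 0.973 FPKM in shJARID2 and 3.05 and 3.08 in shSCR (-1.20, GC-corrected -0.63), and passed the filter through shSCR only. The transcription factor gene SNAI2 averaged 4.19 ± 0.0779 FPKM in shJARID2 and 1.57 ± 0.318 in shSCR (1.02, GC-corrected 0.72). SNAI1, under the filter and not tested, had 0.137 and 0.371 FPKM in shJARID2, against 1.22 and 1.06 in shSCR. IL11, a cytokine gene linked to bone metastasis, averaged 6.77 ± 0.0277 FPKM in shJARID2 and 16.6 ± 0.811 in shSCR (-1.18, GC-corrected -0.43). BHLHE40, a transcriptional repressor gene, fell by 0.89 (GC-corrected -0.73).

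Of 15 genes of signalling by TGF-beta receptors outside the SMADs, 5 (33.3%) rose, 5 (33.3%) fell and 5 did not pass, beside 28.0% and 31.6% of all genes. After GC correction 3 (20%) were higher, 5 (33.3%) lower and 7 did not pass, beside 22.8% and 21.5% of all genes. TRAF4, a ubiquitin ligase gene, fell by 1.15 (GC-corrected -0.55) and SHC1, an adaptor gene, by 0.79 (GC-corrected -0.37), where other genes' exons cover 16.9% of the TRAF4 and 15.2% of the SHC1 exon bases. AKT1, a survival kinase gene, averaged 9.01 ± 0.245 FPKM in shJARID2 and 17.2 ± 1.48 in shSCR (-0.86, GC-corrected -0.25). PARD6A, a polarity protein gene, fell by 0.79 as measured but was at -0.016, without passing, once corrected for GC content. TRAF4, SHC1, AKT1 and PARD6A had the largest measured changes of this list, and the 5 genes that rose are not named.

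**Figure D5:**
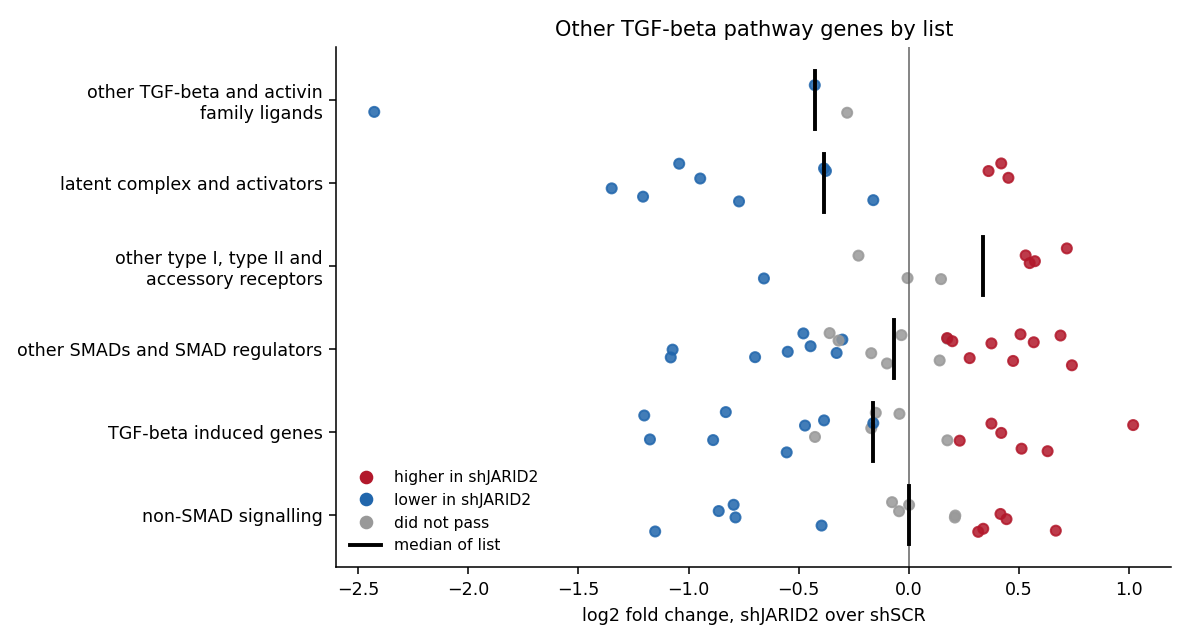
Log2 fold change of shJARID2 over shSCR for the tested genes of 6 lists of other TGF-beta pathway genes; points are genes, coloured by whether they passed as higher or lower, and bars are list medians. Medians run from -0.43 for other ligands, where INHBB lies at -2.43, to 0.34 for other receptors.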

How the data were processed

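The 4 RNA-seq libraries, 2 shJARID2 and 2 shSCR, were grouped by their labels. The submitters' processing notes name Trimmomatic, HISAT2, SAMtools and featureCounts. Genome build, annotation, strand setting and treatment of reads with several matches are not given in the sources consulted. Each library has a deposited table of FPKM values computed by the authors, per the file headers. Of 85553 rows, 60420 lack a symbol and were left out; these held 24.0% and 24.5% of FPKM in shJARID2 and 21.4% and 21.1% in shSCR.

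FPKM multiplied by GENCODE release 29 exon length (24229 rows matched by symbol) and scaled gave whole reads: 95.8% to 96.3% of values up to 20 reads lay within 0.05 of a whole number. All 40 values of the 10 genes did so. Depth thereby came to 12800000 to 16200000 reads per library. Coordinates, GC content and overlaps were taken from GENCODE release 29 on GRCh38 and upstream sequences from RefSeq. The GC content of a gene is the median over all its annotated transcripts, each counted once. It is not that of the transcripts expressed in these cells, which are not known.

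Named rows averaging at least 1 FPKM were tested as log2(FPKM + 1) in limma 3.58.1 (R 4.3.3), with a variance trend, group as the only term and Benjamini-Hochberg adjustment over all 12455; calls were made at an adjusted p below 0.05. The prior added 2.36 to the 2 residual degrees of freedom. For GC correction, loess (span 0.3, degree 2) of deviations on GC content was subtracted in each library for 12051 genes. Alternatives were other pseudocounts, filters and scalings, limma without the trend, limma-voom on recovered reads, a replicate term, GC correction and each library left out. With 1 library left out, the lone library of its group is assumed to vary like the other group. Tables were made with Python 3.11.15.

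The members and lists were chosen with earlier results of these data known. Beyond the 10 genes and JARID2, the text names up to 4 called genes with the largest change per list, plus SMAD7, SKIL, CTGF and TGFB3 and a gene not reported here, and the 2 nearest patterns for 3 members. COX5B, VIM, LTBP2 and SNAI1 were singled out after their values were seen.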

Additional observations from a re-analysis of the deposited data

How the results depend on the processing

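The falls of TGFB1 (log2 fold change from -1.63 to -0.995) and of JARID2 (from -1.47 to -1.15) passed in all 15 alternatives. Having 2 libraries per group left each test with few degrees of freedom, and LTBP3 rests on 112 and 127 reads in shJARID2. Over all genes, 3493 were higher and 3941 lower as reported. With GC correction 2587 were lower, and with GC correction and the replicate block 2328. Leaving out each library gave 2168 to 3068 higher and 2462 to 3763 lower genes, the fewest without shSCR replicate 2. Of the 10 genes, 4 were higher and 2 lower as reported. Higher were 2 with no filter on low values, 2 with GC correction, 1 with GC correction and the replicate block, and 1 to 3 with each library left out (1 without shSCR replicate 1 or 2). Lower were 1 with no filter, and 1 to 2 with each library left out (1 without shJARID2 replicate 1 or shSCR replicate 2). With GC correction, with or without the replicate block, the sign turned for TGFBR1 (-0.25), LTBP3 (0.15), SMAD2 (-0.0029), SMAD3 (0.29), SKI (0.011) and SKIL (-0.23), and for TGFBR1 also without shJARID2 replicate 1 (-0.021, in a range of -0.021 to 0.12 with each library left out). The cause was not tested. Without the filter the calls of TGFBR2, TGFBR3, LTBP3, BMPR1B, SMAD7 and STRAP were lost too. GC correction also turned the sign of LTBP2 (0.34). Among JARID2, the 10 genes and the named list genes other than LTBP2 and SNAI1, no other alternative turned a sign. The alternatives were not summarized for VIM, COX5B, LTBP2, SNAI1 and the genes of like pattern, apart from GC correction for LTBP2. With limma-voom on the recovered reads 3819 genes were higher and 4237 lower. The other scalings moved the median of all genes by 0.0212 and 0.0587 (log2).

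Libraries with the same replicate number did not deviate together (correlation of deviations 0.0291). The labels do not say that a number marks a shared culture, so whether same-numbered libraries share a culture or day is not known. The replicate block alone gave 3380 higher and 3831 lower genes.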
